A study of Mus musculus with 24 samples.

Results

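Acute-phase proteins are plasma and tissue proteins whose amounts shift with inflammation, and 8 genes for such proteins that fat is known to make were followed in mouse epididymal fat: Saa3, Hp, Lcn2, Orm1, Cp, Serpina3n, Serpina3c and Steap4. Every array probe annotated to these symbols was taken. The annotation used here lists 13 probes for 7 of the 8 genes, out of 45281 probes and 19057 named genes, and lists no probe for Serpina3c, whose transcript was therefore not analysed here. Of the 13 probes, 11 passed the filter on dim probes (detection p under 0.05 on at least 8 of 24 arrays). Where a gene has several kept probes, the brightest on average stands for it below.

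The arrays came from male C57BL6/J mice, all 8 months old, in 3 groups of 8: fed ad libitum (AL), on 40% dietary restriction (DR), or given rapamycin, an inhibitor of the mTOR kinase, at 14 ppm (Rapa), with treatment from 2 months of age for 6 months. Both treatments were set against the same AL arrays, so the comparisons with AL share their controls. The labels name epididymal fat as the source while their tissue and extraction fields name liver. They number the samples but do not say that each came from its own mouse, so the tests reflect sample-to-sample spread, which may be partly technical.

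Of 14 adipocyte markers measured, 13 were detected on all 24 arrays, whereas of 15 hepatocyte markers with a probe 0 were detected on all arrays, 3 passed the filter, and Alb, Fgb and Tat were detected on no array. Levels below are log2 intensities after background correction and normalization between arrays, given as lowest, median and highest of 8 arrays, and differences are log2 too, each followed by its standard error (SE). The 75th percentile of raw intensity ran from 15.0 to 111.7 between arrays and followed the array number, with a median of 21.05 for arrays numbered 1 and 5 and 85.55 for arrays numbered 2 and 6. Arrays whose numbers leave the same remainder on division by 4 are called a number class, since what these numbers stand for is not given in the sources used here. Epididymis and testis transcripts formed a second difference between arrays. The median of 11 such markers (the marker score) was 8.55 or more on 5 DR and 2 Rapa arrays and 6.54 or less on the other 17. The summed intensity of these markers was 318 to 6430 on AL, 667 to 41500 on DR and 296 to 66900 on Rapa arrays, and Tnp2 was detected on no array.

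In an acute-phase response, interleukin-6 acting through STAT3, and interleukin-1 and tumour necrosis factor acting through NF-kB and C/EBP factors, raise the transcription of a set of secreted proteins, mainly in the liver. Fat makes several of them as well, in adipocytes and in the immune and stromal cells between them. The members differ in what they do: haptoglobin and ceruloplasmin handle haem iron and copper, lipocalin 2 withholds iron from bacteria, Saa3 is a lipoprotein-bound amyloid A protein, Orm1 binds drugs and lipids in plasma, the Serpina3 proteins inhibit proteases, and Steap4 is a membrane metalloreductase and not a secreted protein.

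The upstream windows of 3 members are shown because Saa3 and Serpina3n both fell under restriction and because Serpina3n and the unmeasured Serpina3c are close relatives on the same chromosome. Each window is the 250 bases before the annotated start, 5′ to 3′ on the gene's strand, from RefSeq on GRCm38.p6. Capitals mark matches, on either strand, to the C/EBP motif TTGCNNAA, the NF-kB motif GGNNTTTCC, the STAT3 motif TTCNNNGAA and the glucocorticoid receptor motif ACANNNTGT. Saa3 lies at chr7:46715677-46715926 on the minus strand, Serpina3n at chr12:104406458-104406707 on the plus strand and Serpina3c at chr12:104153873-104154122 on the minus strand.
Saa3: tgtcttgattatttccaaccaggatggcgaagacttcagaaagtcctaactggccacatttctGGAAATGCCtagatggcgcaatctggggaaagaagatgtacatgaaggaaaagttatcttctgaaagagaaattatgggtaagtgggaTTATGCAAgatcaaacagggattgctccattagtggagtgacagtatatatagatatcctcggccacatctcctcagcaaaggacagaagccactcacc
Serpina3n: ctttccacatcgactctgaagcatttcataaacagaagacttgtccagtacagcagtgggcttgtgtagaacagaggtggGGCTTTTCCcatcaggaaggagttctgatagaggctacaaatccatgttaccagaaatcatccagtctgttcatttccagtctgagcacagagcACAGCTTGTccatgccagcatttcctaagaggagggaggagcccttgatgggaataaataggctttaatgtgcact
Serpina3c: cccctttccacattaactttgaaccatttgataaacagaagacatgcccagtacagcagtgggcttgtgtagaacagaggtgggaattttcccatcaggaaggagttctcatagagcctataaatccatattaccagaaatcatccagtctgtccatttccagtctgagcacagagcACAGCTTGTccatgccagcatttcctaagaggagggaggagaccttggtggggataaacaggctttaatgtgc
The Saa3 window holds 1 C/EBP match, 99 to 92 bases before the start, and 1 NF-kB match, 187 to 179 bases before it. The Serpina3n window holds 1 NF-kB match, 170 to 162 bases before the start, and 1 glucocorticoid receptor match, 76 to 68 bases before it. Serpina3c shares the glucocorticoid receptor match but not the letters of the NF-kB match, and the windows of the pair are identical at 229 of 247 aligned bases (92.7%).

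The windows of the other members were searched in the same way. Lcn2 holds 1 C/EBP and 1 glucocorticoid receptor match, of the 2 Cp windows the one farther downstream holds 1 C/EBP and 1 NF-kB match and the other none, and Steap4 holds 1 match each for C/EBP, NF-kB and STAT3. No match overlapped another. Among all 32851 windows of the same length, 9.56% hold the C/EBP motif, 4.93% the NF-kB motif, 7.02% the STAT3 motif and 5.84% the glucocorticoid receptor motif. With 1 more G required at its start, the NF-kB motif matched Serpina3n and Steap4 and no other member. Windows for Hp and Orm1 were not used here. A match describes the letters only.

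The first comparison asks how the members differ between restricted and freely fed mice. Under DR, Hp, Saa3 and Serpina3n were lower and Cp was higher than under AL, while Orm1, Lcn2 and Steap4 did not pass the test. Thus 4 of 7 measured members were called by limma at an adjusted p under 0.05, 1 higher and 3 lower, where 11.7% of all 9836 genes were called (5.2% higher and 6.5% lower). At an unadjusted p under 0.05, 5 of the 7 passed against 25.2% of all genes. The members' median difference was -0.44 and that of all genes -0.01. In bulk tissue, fewer cells of a type and less RNA per cell cannot be told apart.

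**Figure D1:**
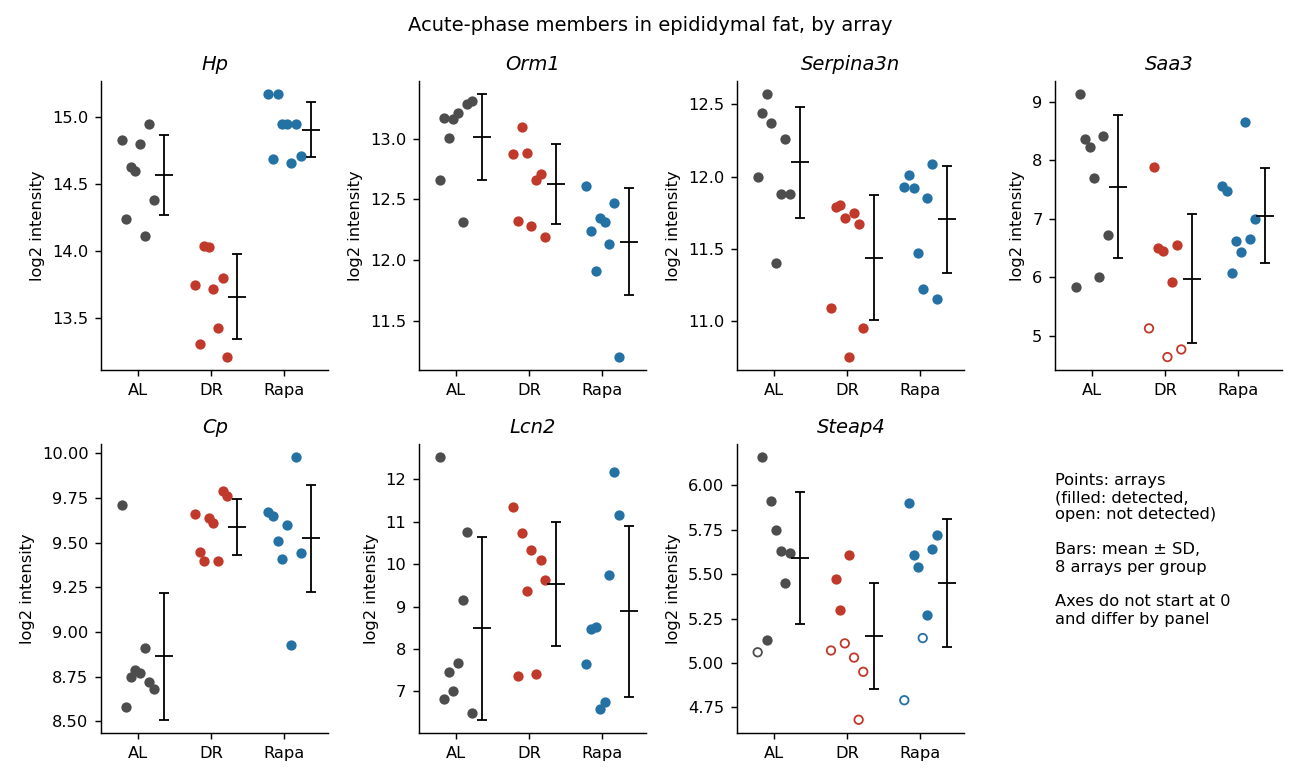
Log2 intensity of the representative probe of each measured member on each array, by group, with the mean and SD of 8 arrays beside the points; open points are arrays on which the probe was not detected. All 8 DR arrays lie below all AL and Rapa arrays for Hp, and 1 AL array stands apart for Cp at 9.71.

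Hp encodes haptoglobin, which binds free haemoglobin so that its iron is not lost. Its level was 14.11, 14.62 and 14.95 under AL, 13.21, 13.73 and 14.04 under DR, and 14.66, 14.95 and 15.17 under Rapa. Every DR array lay below every AL array and below every Rapa array, while AL and Rapa overlapped. Groups without overlap were found for 2.8% of all genes in DR against AL, 0.0915% in Rapa against AL and 2.26% in DR against Rapa.

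The mean fell from 14.57 ± 0.30 (SD, n = 8) under AL to 13.66 ± 0.31 under DR, a 1.87-fold difference (log2 -0.91 ± 0.15 SE, limma adjusted p = 0.00019). The other 2 Hp probes fell as well, by 1.22 (adjusted p = 8.81e-06) and by 1.18 (adjusted p = 0.000421) in the same limma fit, and no DR array overlapped an AL array on either. Within the 4 number classes, with 2 arrays per group in each, the Hp difference ran from -1.08 to -0.80. Leaving out each array in turn kept it between -0.97 and -0.84 with the limma adjusted p at 0.000671 or lower. Without the 7 arrays of high marker score it was -0.98 (limma adjusted p = 0.00809). On the authors' processed values, a z-score within each array, the difference was -0.53 and did not pass (limma adjusted p = 0.566).

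Saa3, an amyloid A apolipoprotein that mouse fat and macrophages make outside the liver, had the widest spread of the members called. AL arrays lay at 5.84, 7.96 and 9.13, DR arrays at 4.64, 6.19 and 7.88 and Rapa arrays at 6.07, 6.82 and 8.65. The probe was detected on all AL and Rapa arrays and on 5 of 8 DR arrays, and DR overlapped both other groups, with 3 DR arrays below every AL array. The mean fell from 7.55 ± 1.22 under AL to 5.98 ± 1.10 under DR (log2 -1.57 ± 0.48, 2.97-fold, limma adjusted p = 0.0342).

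The call for Saa3 was close to the threshold. It was lost when AL array 2, 3, 4 or 7 or DR array 1, 5 or 8 was left out, with differences over all 24 such fits of -1.84 to -1.34 and a limma adjusted p of up to 0.0845. Without the 7 arrays of high marker score the difference was -0.80 (limma adjusted p = 0.549). The 3 DR arrays on which Saa3 was not detected were arrays 1, 5 and 8, at 5.13, 4.64 and 4.77. All 3 were among the arrays of high marker score, at 10.92, 9.90 and 8.55. On DR arrays 3 and 7, with scores of 10.21 and 8.65, Saa3 was detected, at 6.50 and 6.55. DR arrays 1 and 5 also had the lowest 75th percentiles of raw intensity among DR arrays, 19.1 and 17.5, while DR array 8 had 42.7. The part of array brightness in detection was not tested. The part of the marker score in the difference was not tested further. Within number classes the difference ran from -1.89 to -0.67.

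Serpina3n, a secreted inhibitor of serine proteases, followed the same direction at a smaller size. AL arrays lay at 11.40, 12.13 and 12.57, DR arrays at 10.75, 11.69 and 11.80 and Rapa arrays at 11.15, 11.88 and 12.09. All 3 groups overlapped, and DR arrays 1, 5 and 8, at 11.09, 10.75 and 10.95, were below every AL array. The difference between DR at 11.44 ± 0.43 and AL at 12.10 ± 0.38 was -0.66 ± 0.20 (1.58-fold, limma adjusted p = 0.0291).

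The Serpina3n call was lost on leaving out any one of the same 7 arrays as for Saa3 (limma adjusted p up to 0.0701) and without the arrays of high marker score (-0.35, limma adjusted p = 0.495). Within number classes its difference ran from -0.79 to -0.38. Of 10 protein-coding Serpina3 genes in the RefSeq table, 6 have a probe in the annotation. Probe sequences were not used here, so whether the Serpina3n probe also binds transcripts of Serpina3c or other close relatives was not tested.

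Cp encodes ceruloplasmin, the copper ferroxidase that lets iron leave cells, and was the member that rose. AL arrays lay at 8.58, 8.76 and 9.71, DR arrays at 9.40, 9.62 and 9.79 and Rapa arrays at 8.93, 9.56 and 9.98. AL array 1, at 9.71, fell inside the DR range, and the other 7 AL arrays, at 8.91 or lower, lay below every DR and every Rapa array. The mean rose from 8.86 ± 0.36 under AL to 9.59 ± 0.15 under DR (log2 0.72 ± 0.15, 1.65-fold, limma adjusted p = 0.00224).

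A second Cp probe rose by 1.01 ± 0.24 (limma adjusted p = 0.00673), and on it 6 of 8 DR arrays exceeded the whole AL range. The remaining kept probe did not pass (0.05 ± 0.23, limma adjusted p = 0.931) and was detected on 4 AL, 4 DR and 6 Rapa arrays, and another Cp probe was detected on no array. Within number classes the difference on the representative probe ran from 0.39 to 0.96. It kept its call in all 24 fits without 1 array (0.68 to 0.84). Without the arrays of high marker score, which leaves 3 DR arrays, it was 0.63 (limma adjusted p = 0.0949), and with the median over all probes as the scale it was 0.37 (limma adjusted p = 0.461).

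Steap4, a metalloreductase of adipocyte membranes that reduces iron and copper, was dim. It was detected on 7 AL, 3 DR and 6 Rapa arrays, at 5.06, 5.62 and 6.16 under AL, 4.68, 5.09 and 5.61 under DR, and 4.79, 5.57 and 5.90 under Rapa. The groups overlapped. Its difference in DR against AL, -0.44 ± 0.18, did not pass (95% interval -0.80 to -0.07, limma adjusted p = 0.123), but did with array weights (-0.48, limma adjusted p = 0.0399) or the replicate number as a block (-0.44, limma adjusted p = 0.0495). A second Steap4 probe was detected on 1 AL, 2 DR and 0 Rapa arrays.

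Orm1, the alpha-1-acid glycoprotein of plasma, lay at 12.31, 13.17 and 13.31 under AL, 12.19, 12.69 and 13.10 under DR and 11.20, 12.28 and 12.61 under Rapa. AL and DR overlapped, with 2 DR arrays below every AL array. The DR difference of -0.39 ± 0.19 did not pass the test (limma adjusted p = 0.218).

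**Figure D2:**
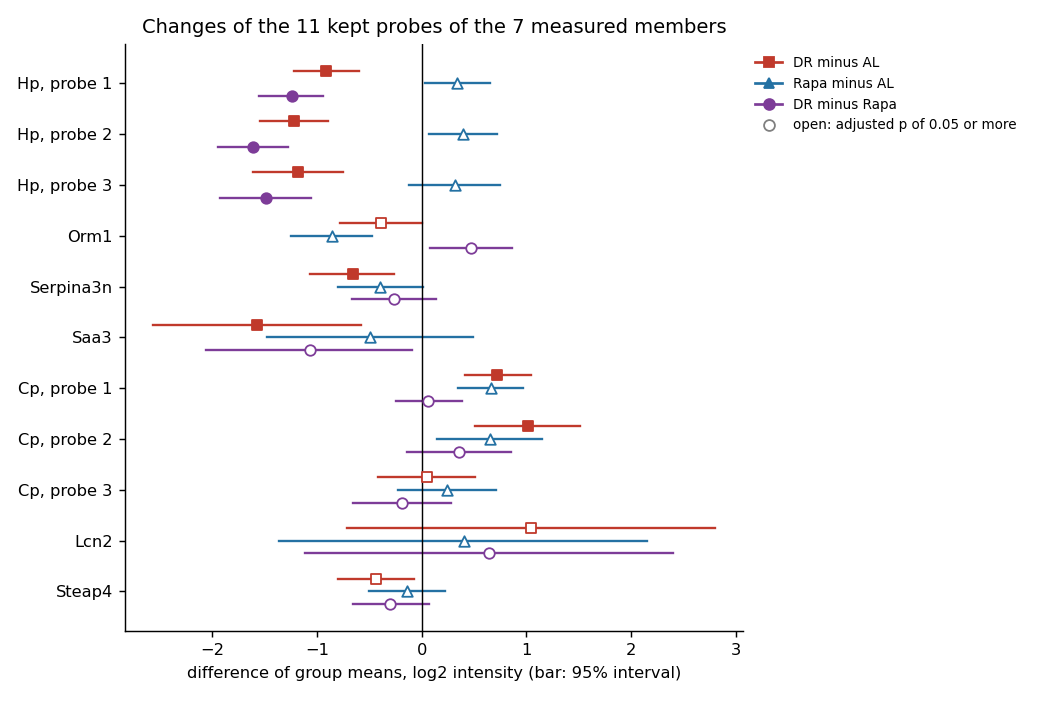
Differences of group means (log2 intensity, horizontal axis) for the 11 kept probes of the 7 measured members, with 95% intervals; filled symbols have a limma adjusted p under 0.05 over all kept probes. All 3 Hp probes lie left of 0 in DR against AL and in DR against Rapa, and the intervals of Lcn2 are the widest.

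Lcn2, the lipocalin that captures bacterial siderophores, varied most between arrays of a group. AL arrays lay at 6.50, 7.57 and 12.53, DR arrays at 7.36, 9.86 and 11.36 and Rapa arrays at 6.59, 8.50 and 12.17. The 3 groups overlapped over most of their range. The DR difference was 1.04 ± 0.85 with a 95% interval of -0.71 to 2.80 (limma adjusted p = 0.515), an interval that spans 0.

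The level of Lcn2 moved with the marker score. On the 7 arrays with a score over 7 it lay between 9.62 and 11.36 with a median of 10.34, and on the other 17 arrays between 6.50 and 12.53 with a median of 7.65. Among those 17, AL arrays 1 and 7 and Rapa array 7 had Lcn2 at 12.53, 10.76 and 12.17 with marker scores of 6.01, 5.59 and 6.34. With the marker score as a covariate the DR difference turned to -1.08 ± 0.80 and without the 7 arrays to -0.45 ± 1.15, neither of which passed (limma adjusted p = 0.536 and 0.894). Within number classes it ran from -0.60 to 2.73.

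**Figure D3:**
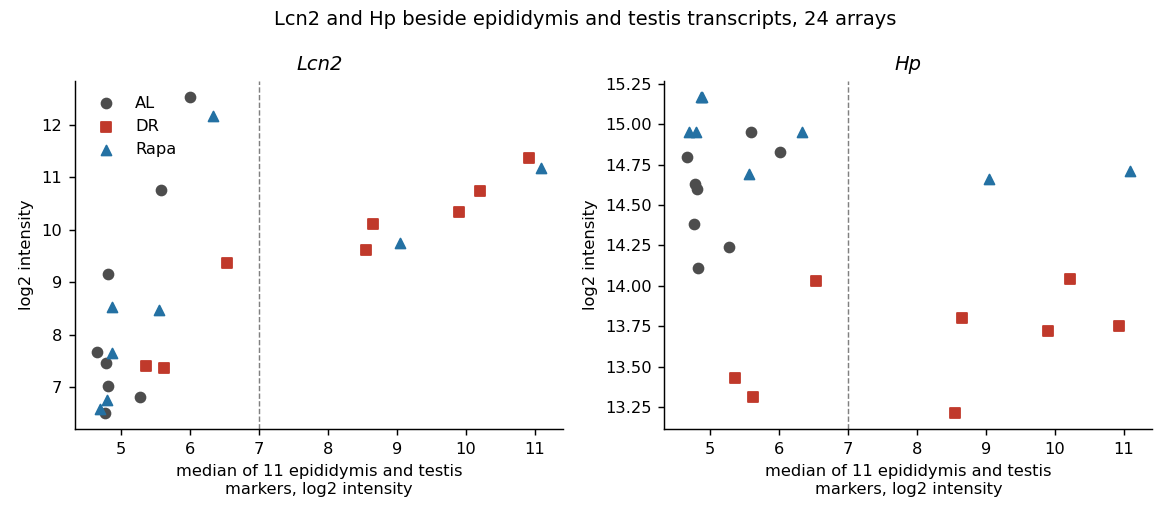
Log2 intensity of Lcn2 (left) and Hp (right) against the median of 11 epididymis and testis markers on the same array, 24 arrays by group; the dashed line marks a score of 7. To its right all 7 arrays have Lcn2 at 9.62 or more, and Hp on DR arrays is at 14.04 or less on both sides.

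The second comparison sets rapamycin against ad libitum feeding. None of the 7 measured members was called under Rapa by limma, where 0.153% of all genes were called, and 3 of 7 passed at an unadjusted p under 0.05 against 9.61% of all genes. These 3 were Orm1, Cp and Hp. The members' median difference was -0.14, that of all genes -0.01.

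Orm1 was 0.86 ± 0.19 lower under Rapa at 12.15 ± 0.44 than under AL at 13.01 ± 0.35 (log2 -0.86, 1.82-fold, limma adjusted p = 0.0643), with 4 of 8 Rapa arrays below every AL array. By unadjusted p it stood at rank 19 of the 9836 genes. The call depended on single arrays: without AL array 1, AL array 6 or Rapa array 1 it passed the threshold, with a limma adjusted p down to 0.0233. Within number classes the Orm1 difference ran from -1.46 to -0.47. With number class as a block, an alternative chosen after seeing the data, it was called (limma adjusted p = 0.0237).

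Cp was 0.66 ± 0.15 higher under Rapa at 9.52 ± 0.30 (1.58-fold, limma adjusted p = 0.0787). Rapa array 6, at 8.93, was the lowest of its group and stood next to the AL arrays. Without Rapa array 6 or without AL array 1 the difference was called, with a limma adjusted p down to 0.00584. It was also called in 5 of 16 other settings and probes, among them array weights, the replicate number as a block and number class as a block (limma adjusted p = 0.0191 for number class). Within classes it ran from 0.39 to 1.01. Hp was 0.34 ± 0.15 higher under Rapa, with 2 Rapa arrays above every AL array (limma adjusted p = 0.486), and its other 2 probes gave 0.39 and 0.32, neither called.

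Saa3, Serpina3n, Lcn2 and Steap4 did not pass at either threshold in Rapa against AL. Their differences were -0.49 (95% interval -1.48 to 0.49), -0.40 (-0.80 to 0.01), 0.40 (-1.36 to 2.15) and -0.14 (-0.50 to 0.22), and all 4 intervals include 0.

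Set directly against each other, the treatments differed in Hp. Of 7 members 1 was called in DR against Rapa, and it was lower under DR, against 11.4% of all genes (5.88% higher and 5.54% lower), and 3 passed at an unadjusted p under 0.05 against 24.4%. Hp was lower under DR than under Rapa by 1.24 ± 0.15 (2.37-fold, limma adjusted p = 3.04e-06), by 1.61 and 1.49 on its other probes, and the representative probe stood at rank 30 of all genes. Within number classes this difference ran from -1.32 to -1.14, and in the fits without 1 array from -1.30 to -1.18.

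Orm1 was higher under DR than under Rapa by 0.47 ± 0.19, with 5 of 8 DR arrays above every Rapa array, but did not pass (limma adjusted p = 0.122). Saa3 differed by -1.07 ± 0.48 (limma adjusted p = 0.179). For Cp the difference was 0.06 ± 0.15, with a 95% interval of -0.25 to 0.38 (limma adjusted p = 0.872). The remaining 3 members had limma adjusted p-values of 0.346 to 0.736.

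Members also varied between arrays of the same group. Of the 21 pairs among the 7 members, 2 passed an adjusted p under 0.05 in a two-sided permutation of arrays within groups with the group means removed (n = 24). Saa3 and Serpina3n varied together (Pearson r = 0.60, permutation p = 0.00382, adjusted p = 0.0401; Spearman rho = 0.59, permutation p = 0.00475, adjusted p = 0.0997). Without AL array 1 and DR array 2, the farthest from the median of Saa3, r was 0.61, and within groups it was 0.56 under AL, 0.87 under DR and 0.26 under Rapa.

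Saa3 and Cp varied in opposite directions (Pearson r = -0.57, permutation p = 0.00249, adjusted p = 0.0401; Spearman rho = -0.51, permutation p = 0.0132, adjusted p = 0.134), with r = -0.48 without the same 2 arrays and -0.70, -0.43 and -0.57 within AL, DR and Rapa. Neither pair passed by rank, and both were sensitive to the processing and to single arrays. In the 24 fits without 1 array, Saa3 with Cp passed in 12 (r from -0.62 to -0.47, permutation adjusted p up to 0.107). Saa3 with Serpina3n passed in 9 of these 24 (r from 0.55 to 0.67, permutation adjusted p up to 0.0855). Saa3 with Serpina3n stayed positive in every alternative run, at 0.29 to 0.77. Saa3 with Cp turned to 0.50 (permutation adjusted p = 0.0292) when arrays were scaled to their median over all probes. With number class as a block r was 0.47 and -0.49 and neither pair passed (permutation adjusted p = 0.111).

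**Figure D4:**
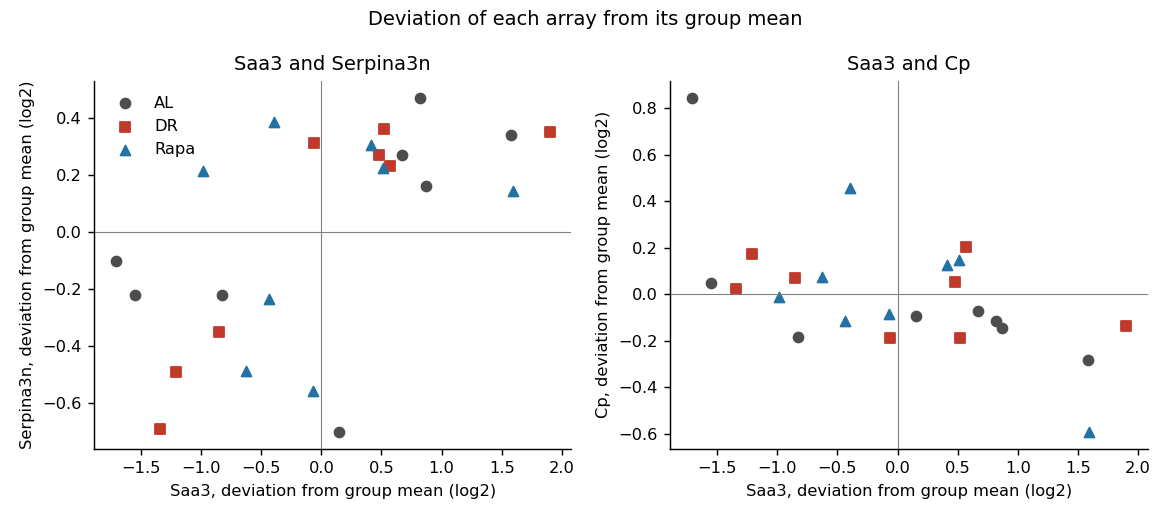
Deviation of each array from its group mean (log2) for Saa3 on the horizontal axis against Serpina3n (left) and Cp (right), 24 arrays by group. Points rise from left to right for Serpina3n (r = 0.60) and fall for Cp (r = -0.57), with AL array 1 at the upper left for Cp.

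Hp and Orm1 had r = 0.51 and did not pass (permutation adjusted p = 0.0782), falling to 0.34 without AL array 6 and DR array 8. The pair passed on the authors' values (r = 0.78, permutation adjusted p = 0.00126), with median scaling over all probes (0.68, permutation adjusted p = 0.00287) and without AL array 1, 2 or 8 or Rapa array 3 (0.59, 0.56, 0.55 and 0.56, permutation adjusted p = 0.0317 to 0.0489). Lcn2 and Cp had r = 0.50 (permutation adjusted p = 0.143), which fell to 0.05 without AL array 1 and Rapa array 7, the 2 arrays with the highest Lcn2. It passed with the marker score as covariate (0.73, permutation adjusted p = 0.00924), without scores over 7 (0.80, permutation adjusted p = 0.0202) and without Rapa array 6 (0.64, permutation adjusted p = 0.044). The other 17 pairs had permutation adjusted p-values of 0.244 to 0.930.

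The genes whose array-to-array pattern was most like each member's are given as a description, by Pearson r over 24 arrays with group means removed, among 9829 other genes. For Saa3 they were Col1a1 (0.779), H2bc14 (0.777) and Tor1b (0.734), and for Serpina3n Zfp322a (0.862), Col4a2 (0.855) and Ranbp9 (0.820). For Hp they were Acot8 (0.848), Fbxw8 (0.827) and Rab31 (0.825), and for Orm1 Idh3a (0.849), Cyria (0.822) and Paqr9 (0.804). Lcn2 had the closest neighbours, Pdzk1 (0.919), Acot1 (0.919) and Cdh16 (0.896). Kank1 (0.823), Porcn (0.808) and Hdc (0.804) led for Cp, and Bace2 (0.661), Cox11 (0.639) and Atp13a1 (0.617) for Steap4. The arrays share the brightness classes described above, and so do these values.

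Among other acute-phase proteins, 13 of 31 listed genes were measured, of which limma called 3 lower and 1 higher under DR, against 11.7% of all genes. Under Rapa it called 0, against 0.153% of all genes, and 2 passed at an unadjusted p under 0.05, against 9.61%. The 13 genes had a median difference of -0.36 in DR against AL. Lbp, the plasma protein that carries bacterial lipopolysaccharide to Cd14, lay at 8.98, 9.77 and 10.84 under AL, 6.59, 7.55 and 8.80 under DR and 8.03, 8.99 and 10.19 under Rapa. No DR array overlapped AL, where 2.8% of all genes had groups without overlap, and the difference was -2.08 ± 0.30 (4.22-fold, limma adjusted p = 3.85e-05).

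Lrg1, a secreted leucine-rich glycoprotein, lay at 11.66, 12.03 and 12.48 under AL, 10.16, 10.80 and 11.52 under DR and 10.85, 11.92 and 12.16 under Rapa. Here too every DR array was below every AL array (-1.25 ± 0.19, 2.37-fold, limma adjusted p = 6.44e-05), where 2.8% of all genes had groups without overlap. Like Hp, both genes were also lower under DR than under Rapa, Lbp by 1.46 ± 0.30 and Lrg1 by 0.97 ± 0.19 (limma adjusted p = 0.00174 and 0.000992). Without the 7 arrays of marker score over 7, which leaves 3 DR arrays, Lbp (-1.47, limma adjusted p = 0.0254) and Lrg1 (-0.95, limma adjusted p = 0.0372) were still called against AL. With the limit at 6, which leaves 2 DR arrays, Lrg1 was called (-1.17, limma adjusted p = 0.0459) and Lbp was not (-1.53, limma adjusted p = 0.0863). In DR against Rapa neither was called under either limit, with Lbp at -0.75 and -0.66 and Lrg1 at -0.67 and -0.80 for limits of 7 and 6 (limma adjusted p = 0.122 to 0.402).

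Cfb, the complement factor B of the alternative pathway, fell by 1.24 ± 0.35 under DR (limma adjusted p = 0.0217), and Cd14, the lipopolysaccharide co-receptor, rose by 0.56 ± 0.18 (limma adjusted p = 0.0436). Without scores over 7, with 3 DR arrays left, Cfb was at -0.53 and Cd14 at 0.69, and neither passed (limma adjusted p = 0.561 and 0.141). With the marker score as covariate Cfb was at -0.98 and not called (limma adjusted p = 0.207), and Cd14 was at 0.78 and called (limma adjusted p = 0.0277). Orm2, the neighbour and close relative of Orm1, gave -1.38 ± 0.32 in Rapa against AL (limma adjusted p = 0.0787) and -0.36 ± 0.32 in DR against AL. In DR against Rapa it was called higher (1.02 ± 0.32, limma adjusted p = 0.0394). Of the 13 measured genes of the list, limma called 1 higher there and 3 lower (Lbp, Lrg1 and Serping1), against 5.88% and 5.54% of all genes. Orm2 is named because it is the relative of a member. Levels of such close copies are uncertain where a probe may bind both. Of 4 measured negative acute-phase proteins limma called 0 in either comparison with AL, while 2 and 0 passed at an unadjusted p under 0.05. In DR against Rapa 2 of the 4 were higher, against 5.88% of all genes called higher: Rbp4, the plasma retinol carrier (0.99 ± 0.25, limma adjusted p = 0.011), and Trf, transferrin (0.57 ± 0.17, limma adjusted p = 0.0321). Both are named after their values were seen.

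**Figure D5:**
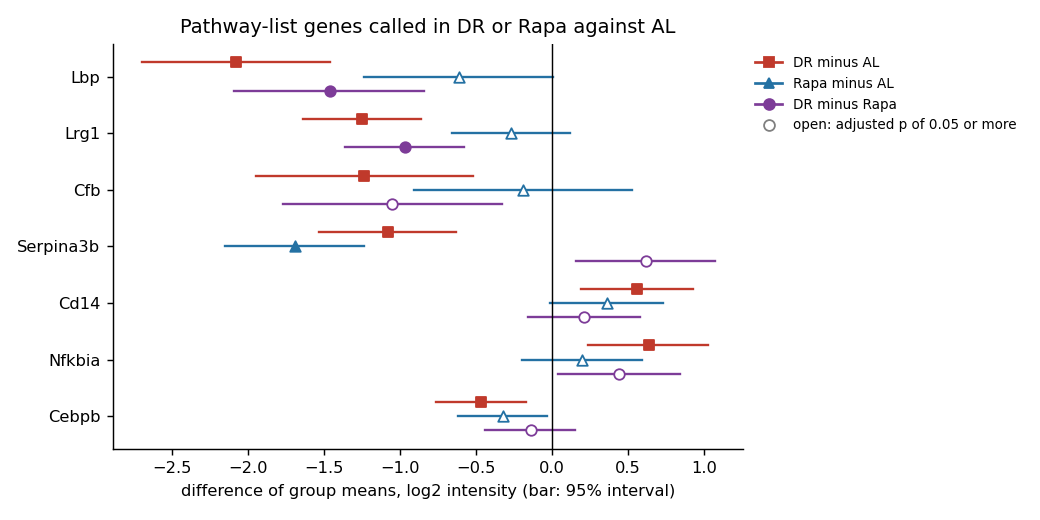
Differences of group means (log2 intensity, horizontal axis) with 95% intervals for the 7 genes of the pathway lists that limma called in DR or Rapa against AL; filled symbols have a limma adjusted p under 0.05. Lbp, Lrg1, Cfb, Serpina3b and Cebpb lie left of 0 in DR against AL, and Serpina3b is the gene called in Rapa against AL. The Serpina3b probe passed the filter through the AL arrays, where it is high, and the filter favours its fall against AL.

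In the Serpina3 cluster, 5 of 9 other listed genes have a probe and 1 was measured. Serpina3b was detected on 8 AL, 4 DR and 1 Rapa arrays, at 5.87, 6.63 and 7.00 under AL, 4.83, 5.29 and 6.59 under DR and 4.40, 4.78 and 5.30 under Rapa. No Rapa array reached the AL range, where 0.0915% of all genes had groups without overlap, and 6 of 8 DR arrays lay below the AL range. Serpina3b fell by 1.08 ± 0.22 under DR (limma adjusted p = 0.00157) and by 1.69 ± 0.22 under Rapa (limma adjusted p = 0.000291). The probe passed the filter through the AL arrays, the group where it is high. That filter favours a fall against AL, so neither call is independent of it, and both are given as a description. Its Rapa levels lie close to background, so the size of the Rapa difference is uncertain.

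The other pathway lists were read against 11.7% of all genes called in DR against AL, 0.153% in Rapa against AL and 11.4% in DR against Rapa. Of 12 measured inducing cytokines and receptors none was called by limma in any comparison, and the same held for 13 genes of metalloreduction and iron and copper handling and for 8 receptors of acute-phase proteins. At an unadjusted p under 0.05 in the same limma fits, 1 of the 12, 1 of the 13 and 1 of the 8 passed in DR against AL, 0, 1 and 1 in Rapa against AL, and 4, 1 and 2 in DR against Rapa, where 25.2%, 9.61% and 24.4% of all genes passed. Of 17 transcription factors and feedback inhibitors 2 were called in DR against AL, 0 in Rapa against AL and 1 in DR against Rapa. Nfkbia, the inhibitor of NF-kB, rose by 0.64 ± 0.19 (limma adjusted p = 0.0337) and Cebpb fell by 0.47 ± 0.14 (limma adjusted p = 0.0345) under DR. A second, dim Nfkbia probe gave -0.07 (limma adjusted p = 0.879). Without scores over 7 Nfkbia was at 0.64 and Cebpb at -0.21, and neither passed (limma adjusted p = 0.187 and 0.584). With the marker score as covariate Nfkbia was at 0.82 and called (limma adjusted p = 0.0364), and Cebpb was at -0.25 and not called (limma adjusted p = 0.465). The kinase Jak1, named after its values were seen, was higher under DR than under Rapa by 0.81 ± 0.16 (limma adjusted p = 0.00147), with all 8 DR arrays above all Rapa arrays. Groups without overlap were found for 2.26% of all genes in that comparison.

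Markers of other cells that make these proteins were set against 6.5% of all genes called lower and 5.2% called higher in DR against AL. Of 14 measured macrophage markers limma called 6 lower under DR, among them Gpnmb (-2.38 ± 0.49, limma adjusted p = 0.00162) and Trem2 (-1.52 ± 0.30, limma adjusted p = 0.00104), and 0 higher. Cd163 of the same list was at 0.62 ± 0.26 and did not pass (limma adjusted p = 0.131). In DR against Rapa 8 of the 14 were called lower and 0 higher, against 5.54% and 5.88% of all genes. The part of the marker score in these differences was not tested. The summed intensity of the list was 15500 to 37900 on AL arrays, 12300 to 20600 on DR arrays and 19200 to 38300 on Rapa arrays. Of 5 measured neutrophil markers S100a8 fell (-2.34 ± 0.39, limma adjusted p = 0.000206), while Ltf (1.99), Elane (0.55), Mmp9 (-0.13) and Csf3r (-0.33) did not pass. In DR against Rapa, 1 of the 5 was called higher and 1 lower, against 5.88% and 5.54% of all genes. Elane was higher (0.68 ± 0.21, limma adjusted p = 0.0312). S100a8 was lower (-2.56 ± 0.39, limma adjusted p = 7.06e-05), with all 8 DR arrays below all Rapa arrays, where 2.26% of all genes had groups without overlap. Camp and Mmp8 were detected on no array, and the sums were 582 to 1910, 287 to 6870 and 650 to 10300. Ltf had means of 4.84 under AL, 6.83 under DR and 7.24 under Rapa, with an SE of 1.24 for each difference. The part of Ltf in these sums, and of the marker score in Ltf, was not tested. Among 9 fibroblast markers 3 fell, with sums of 11100 to 18500, 9530 to 18600 and 9200 to 17600. Among 9 mesothelial markers 3 rose, with sums of 1200 to 3880, 2220 to 5060 and 2080 to 4430. In DR against Rapa 3 of the 9 fibroblast markers were called lower and 0 higher, and 0 of the 9 mesothelial markers were called. Of 14 measured adipocyte markers 0 rose and 1 fell in DR against AL, Lep (-1.53 ± 0.13, limma adjusted p = 1.55e-08), and the median difference was 0.21. Their sums were 116000 to 142000, 91300 to 127000 and 88900 to 125000. In DR against Rapa 3 of the 14 were higher and 1 lower. The part of any of these cells in the changes of Hp, Saa3, Serpina3n and Cp was not tested.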

How the data were processed

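RNA from 24 samples was measured on Illumina mouse BeadChips, 1 array each, from 25 mg of tissue, per the labels' protocols. The deposited intensity values were background-subtracted without normalization between arrays, and come with a detection p-value per probe, per the file headers; how the arrays were scanned is not stated there. A further table deposited by the authors holds a score. Compared with the intensities, it equals a within-array z-score of log intensity, each array's values raised by a constant of 99.01 to 188.8 (largest deviation 0.00177), and it served as an alternative.

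Intensities were corrected with neqc (offset 16) in limma 3.58.1 and R 4.3.3, which fits the background from the detection p-values, normalizes quantiles and takes log2. The filter kept 17165 probes, of which 14717 had 1 gene symbol in the platform annotation (9836 genes). In the annotation 34885 probes have 1 symbol, 18 several and 10378 are not listed. A single fit of group means over all 24 arrays (21 residual degrees of freedom) gave the 3 comparisons, with Benjamini-Hochberg adjustment over all kept probes. Member correlations used 100000 permutations within groups in Python 3.11.15 and NumPy 2.4.6, and the upstream windows were aligned with Biopython 1.88. The fit was also run on simulated data in which each array was drawn independently. Those data held neither the number classes nor the marker score, so they cannot show how the fit handles these. Array number limits the precision.

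The members and gene lists were chosen with earlier results of these data known. Named genes were all members, the 3 genes most correlated with each, and up to 4 called genes per pathway list. Same-numbered arrays of different groups tended to deviate together, though not all did (24 pairs, r from -0.141 to 0.585, median 0.213, 17 above 0.1). Pairs of the same number class with other numbers had a median r of 0.136, and pairs of different classes -0.0576. The main fit has no block, so its spread includes this structure, and fits with a block are given as alternatives. Alternatives covered the scaling, filter, offset, background model, array weights, blocks, the marker score, single arrays and other probes.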

Additional observations from a re-analysis of the deposited data

Results flagged for a closer look

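Cp on AL array 1 stood apart from its group. The representative Cp probe lay at 9.71 there, the nearest other AL array at 8.91, and this gap exceeded Dixon's 95% limit for 8 arrays. It was the 1 array past that limit in 54 groups examined (the kept member probes and the called pathway genes, in each of 3 groups), and chance puts about 1 group in 20 past it. The same array had the highest Lcn2 (12.53) and the lowest Saa3 (5.84) and Steap4 (5.06) of the AL group, and the highest AL marker score (6.01). Without it the Cp difference between DR and AL was 0.84, and Rapa against AL passed the test in limma. The cause was not tested.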

How the results depend on the processing

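The fall of Hp under DR kept its call in 15 of 16 other settings and probes, in both comparisons, and lost it on the authors' values (DR against Rapa -1.32, limma adjusted p = 0.0885). Saa3 lost its DR call in 8 of 14, Serpina3n in 5 of 14 and Cp in 4 of 16. Members called in DR against AL numbered 4 in the main analysis, 1 with median scaling over all probes, 2 each on the authors' values, without the filter and with the marker score as covariate, 1 each without arrays of marker score over 6 or over 7, and 5 with array weights or the replicate block, each adding Steap4 (-0.48 and -0.44, limma adjusted p = 0.0399 and 0.0495). In Rapa against AL 0 became 2 with offset 50, array weights, the replicate block or number class as block, and 1 without scores over 6. In DR against Rapa 1 became 0 on the authors' values. Without 1 array these counts ran from 2 to 4, from 0 to 2, and stayed at 1.

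All genes called in DR against AL numbered 1150 (511 higher, 639 lower). They were 577 with median scaling over all probes (68 higher, 509 lower), 700 with the marker score, 249 without scores over 6, 458 without scores over 7, 1804 with array weights and 1953 with number class as block. In Rapa against AL 15 (0 higher) became 3, 8 without the filter, 25 with offset 50, 6 without a background model, 48 without scores over 6, 9 without scores over 7, 48 with array weights and 154 with number class; the authors' values gave 3 higher and 15 lower. In DR against Rapa 1123 (578 higher, 545 lower) became 284 (113 higher, 171 lower) with median scaling over all probes, 462 and 730 without scores over 6 and 7, and 1887 with number class. Ranges without 1 array were 914 to 1268, 8 to 36 and 975 to 1218. Leaving out scores over 6 keeps 7 AL, 2 DR and 5 Rapa arrays, and over 7 keeps 8, 3 and 6.

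Median scaling over all probes, most of which are not detected, moved the median of all genes by -0.28 in DR and -0.21 in Rapa against AL. Relative to that, Hp was -0.86, Saa3 -1.38, Serpina3n -0.70 and Cp 0.65 in DR. Scaling over probes detected on all arrays was added after seeing that result, as were the limit of 7 and the number class, and called 3 members in DR, losing Saa3 (-1.29, limma adjusted p = 0.0578).

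With the replicate number as a block, limma called 1886, 121 and 1765 genes in the 3 comparisons, among them Steap4 under DR (adjusted p = 0.0495) and Orm1 and Cp under Rapa (adjusted p = 0.0346 and 0.0299), and changed no other member's call. The labels do not say that a shared number marks a pairing, and 9 of 24 arrays correlated best with their own number against 18 with their number class.

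The number of member pairs whose correlation passed was 2 in the main analysis, 13 with median scaling over all probes and 3 with the marker score as covariate (Saa3 with Cp and with Serpina3n, and Lcn2 with Cp). It was 1 on the authors' values (Hp with Orm1), without a background model (Saa3 with Serpina3n), with the replicate block (Saa3 with Cp) and without scores over 7 (Lcn2 with Cp), and 0 with scaling over detected probes, offset 50, number class or scores over 6 left out; without 1 array it ran from 0 to 3. These counts need not hold the same pairs. Correlations were not run for the filters, array weights or 2-group fits.

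The correlation of Saa3 with Cp, given above, passed with either sign (-0.57 in the main analysis and 0.50 with median scaling over all probes). Among differences between groups, signs turned for values that never passed. Lcn2 was -1.08, -0.53 and -0.45 in DR against AL, -0.50, -0.31 and -0.13 in Rapa against AL, and -0.58, -0.22 and -0.32 in DR against Rapa with the marker score, scores over 6 out and scores over 7 out, and in Rapa against AL it ran from -0.07 (without Rapa array 7) to 0.97 in the fits without 1 array. Cp in DR against Rapa was -0.01 with all-probe scaling, -0.14 with either limit, -0.02 without Rapa array 6 (0.13 at most in such fits) and -0.19 on its dimmest kept probe. In DR against Rapa without scores over 6, Saa3 was 0.07 and Serpina3n 0.06. Steap4 in Rapa against AL was 0.13 with scaling over detected probes. The causes were not tested. Dim probes, Saa3 in DR and Steap4 in all groups, are limited by signal over background.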
